A study of Mus musculus with 6 samples.

Results

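Resident macrophages of the liver were followed through 9 marker genes of the Kupffer cell (Clec4f, Vsig4, Timd4, Marco, Cd5l, Adgre1, Folr2, Cd163 and Csf1r), taken by gene name from a count table of 54532 genes. Bulk RNA sequencing had given 6 liver libraries from male mice, 3 Trem2-deficient (Trem2-/-, labelled KO, replicates 4, 5 and 6) and 3 littermate wild types (WT, replicates 1, 2 and 3). All mice went on a high-fat diet at 8 weeks of age and stayed on it for 8 weeks, so the diet is shared by both groups and no lean liver enters the comparison. The sources used here give neither how the Trem2 allele was made nor whether each library is 1 mouse; if libraries share a mouse, p-values cover only the spread between libraries. The comparison asks how the resident macrophage compartment of the fatty liver reads at the RNA level without Trem2, a macrophage receptor for lipids and dying cells.

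Kupffer cells are macrophages lodged in the liver sinusoids, where they take up bacteria, dying cells, haemoglobin and lipid from portal blood. Most are seeded before birth and renew themselves locally under the growth factor receptor Csf1r. Signals from the neighbouring endothelium and stellate cells keep their identity. In fatty liver disease, part of the resident pool is known to be lost and replaced by monocyte-derived macrophages, which take on Clec4f and Vsig4 well before Timd4; Timd4 is therefore used to mark the embryonically seeded cells.

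The 6 libraries held between 11591021 and 20399361 counts, and levels are given in CPM, read counts set to equal depth with TMM scaling. Albumin, at 53133 ± 2567 CPM in KO and 61042 ± 11428 CPM in WT livers (SD, n = 3 each), marked the tissue as liver. Trem2 had 9, 6 and 5 counts in KO replicates 4, 5 and 6, against 7, 26 and 26 in WT replicates 1, 2 and 3, so the library labelled WT replicate 1 lay within the range of the KO-labelled ones (log2 fold change −1.30, SE 0.68, edgeR adjusted p = 0.633). Directions are therefore between libraries as labelled. The share of counts from the mitochondrial genome was 28%, 9.08% and 19.8% in KO replicates 4, 5 and 6, and 8.16%, 12.7% and 10.2% in WT replicates 1, 2 and 3.

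All 8 markers that had enough counts to be tested were fitted higher in the KO livers, by 1.29-fold (Marco) to 2.55-fold (Cd163), and none of them passed an adjusted p of 0.05. The edgeR quasi-likelihood test over 13693 genes called 2 genes in all, both higher in KO (0.0146% of those tested), and the adjusted p of the 8 markers ran from 0.391 to 0.804. Before adjustment, 4 of the 8 (Csf1r, Cd163, Vsig4 and Clec4f) had p under 0.05 in the direction of higher in KO, against 5.37% of all genes tested. In 4 of the 8 (Csf1r, Cd163, Vsig4 and Cd5l) every KO library lay above every WT library, which held for 8.12% of all tested genes. Their median log2 fold change was 0.80, beside −0.01 over all tested genes, 49.1% of which were fitted higher. Folr2, the ninth marker, had too few counts to be tested. In whole liver, more Kupffer cells and more RNA per Kupffer cell cannot be told apart.

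**Figure D1:**
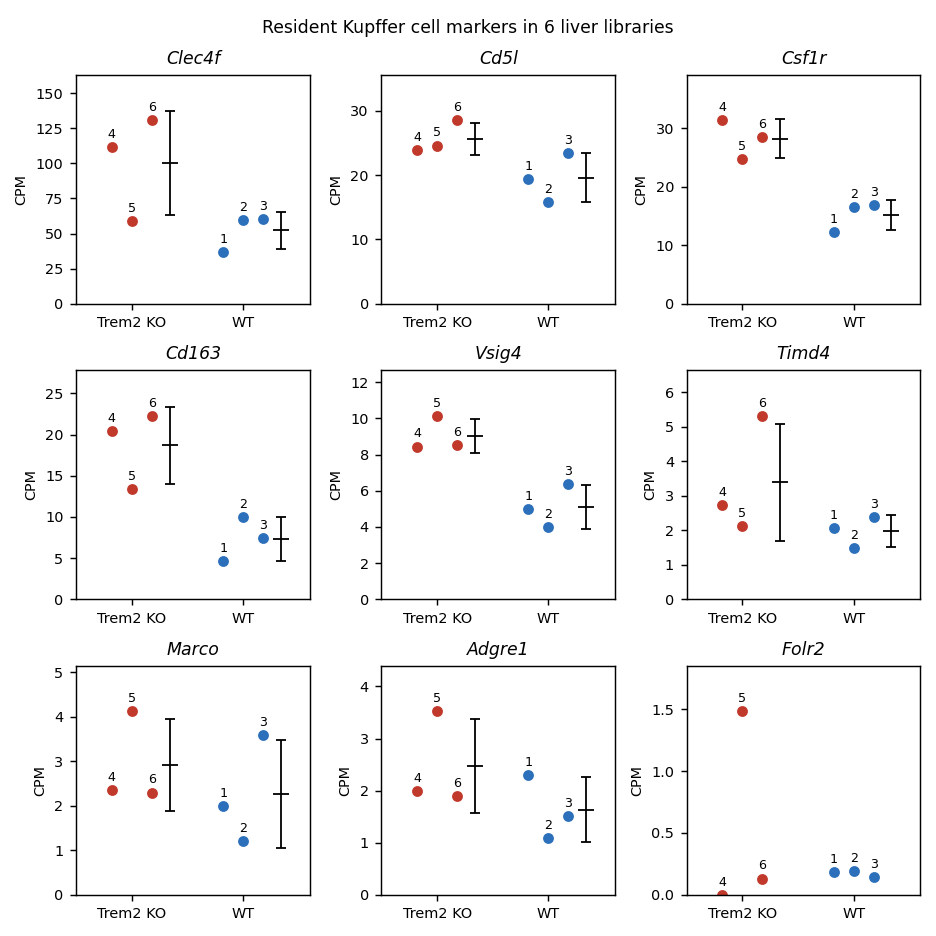
Level of each of the 9 markers in CPM (vertical axis, starting at 0) in the Trem2 KO and WT libraries, with replicate numbers beside the points; black bars are group mean ± SD (n = 3 each), left out for Folr2. Csf1r, Cd163, Vsig4 and Cd5l have all KO points above all WT points, while the other 5 markers overlap.

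Clec4f, a C-type lectin that in the mouse is made almost only by Kupffer cells, was the most abundant marker. It stood at 112, 59.1 and 131 CPM in KO replicates 4, 5 and 6, against 37.1, 59.8 and 60.3 CPM in WT replicates 1, 2 and 3. KO replicates 4 and 6 were thus well above every WT library, while KO replicate 5 sat just under WT replicates 2 and 3. The group means were 100.5 ± 37.1 CPM in KO and 52.4 ± 13.3 CPM in WT (SD, n = 3 each). That is a log2 fold change of 0.94 (SE 0.34, edgeR adjusted p = 0.52; two-sided exact permutation p = 0.3, where 3 against 3 can give no p below 0.1). The gene (ENSMUSG00000014542) lies on mm10 chromosome 6, 83644542 to 83656187, and overlaps no other gene of the table.

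Timd4, the phosphatidylserine receptor that tethers dying cells, had far fewer reads. Its counts were 30, 46 and 81 in KO replicates 4, 5 and 6, and 33, 23 and 49 in WT replicates 1, 2 and 3. Scaled to depth these were 2.73, 2.13 and 5.32 CPM in KO, against 2.06, 1.47 and 2.38 CPM in WT. KO replicate 6 stood alone at the top, KO replicate 4 was just above the WT range and KO replicate 5 within it. The log2 fold change was 0.78 (SE 0.44, edgeR adjusted p = 0.649), and without KO replicate 6 it was 0.29.

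Vsig4, the complement receptor of the immunoglobulin family that captures opsonised bacteria, separated the groups. It was at 8.45, 10.1 and 8.54 CPM in KO replicates 4, 5 and 6, and at 4.99, 3.97 and 6.37 CPM in WT replicates 1, 2 and 3. The KO libraries were close to each other and all above the WT ones (9.04 ± 0.954 CPM in KO, 5.11 ± 1.21 CPM in WT; SD, n = 3 each). The log2 fold change was 0.82 (SE 0.26), with an edgeR adjusted p of 0.449 and an exact permutation p of 0.1, the smallest that this design can give.

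These 3 markers and Cd163, which had the greatest fold change of the 8 tested markers, are shown with the bases just before their start of transcription, because Clec4f, Timd4 and Vsig4 share a short motif there that Cd163 lacks. The RefSeq (GRCm38.p6) windows used here covered 7 of the 9 markers, all but Adgre1 and Csf1r. Capitals mark GGAAGT, the core bound by ETS factors, among them the macrophage regulator PU.1; each sequence is the 250 bases before the RefSeq start, 5′ to 3′ on the strand of the gene. The Clec4f start of RefSeq lies 71 bases inside the gene span given above, so the last bases of its window, GGAAGT among them, are within that span. The windows are chr6:83656117-83656366 (minus strand, Clec4f), chr11:46810549-46810798 (plus strand, Timd4), chrX:96293439-96293688 (minus strand, Vsig4) and chr6:124304401-124304650 (plus strand, Cd163).
Clec4f: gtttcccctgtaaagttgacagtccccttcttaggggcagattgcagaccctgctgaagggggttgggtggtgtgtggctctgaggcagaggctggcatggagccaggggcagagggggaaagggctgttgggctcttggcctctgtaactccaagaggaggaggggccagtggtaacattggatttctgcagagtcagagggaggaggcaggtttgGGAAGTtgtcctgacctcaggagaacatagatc
Timd4: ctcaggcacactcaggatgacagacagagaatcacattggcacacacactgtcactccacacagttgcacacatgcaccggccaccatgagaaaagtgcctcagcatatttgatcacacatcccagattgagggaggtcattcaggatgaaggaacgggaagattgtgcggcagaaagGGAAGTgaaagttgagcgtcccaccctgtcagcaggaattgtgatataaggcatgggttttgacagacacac
Vsig4: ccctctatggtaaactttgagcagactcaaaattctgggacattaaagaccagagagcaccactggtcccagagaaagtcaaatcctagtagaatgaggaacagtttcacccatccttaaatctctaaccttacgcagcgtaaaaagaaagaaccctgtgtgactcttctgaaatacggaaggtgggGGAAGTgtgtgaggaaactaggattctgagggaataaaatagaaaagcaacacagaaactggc
Cd163: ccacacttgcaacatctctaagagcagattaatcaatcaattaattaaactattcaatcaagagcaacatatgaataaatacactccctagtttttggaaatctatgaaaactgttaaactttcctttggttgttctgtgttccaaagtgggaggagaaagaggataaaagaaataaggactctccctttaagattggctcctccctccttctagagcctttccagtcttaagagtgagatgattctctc

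The GGAAGT match lay 33 to 28 bases before the RefSeq start in Clec4f, 72 to 67 in Timd4 and 63 to 58 in Vsig4. Searched on both strands, it was present in 4 of the 7 windows (Folr2 also, at 136 to 131 and 81 to 76), and in 19.7% of 32851 mouse windows of the same length. The longer form AGGAAGT was present only in Folr2 among the 7, and in 7.69% of all windows. The MAF half-site TGCTGA stood in 4 of the 7 (Clec4f, Timd4, Cd5l and Folr2; 16.1% of all windows), the nuclear receptor half-site AGGTCA in Clec4f and Timd4 (14% of all) and the RBPJ motif TGGGAA in Clec4f and Marco (21.6% of all). In Clec4f the TGGGAA and GGAAGT matches share bases. Cd163, which had the greatest fold change of the 8 tested markers, held none of these 4 motifs in its window. None of the 4 was thus common to the 7 windows. Csf1r and Adgre1 had no window here, and beyond AGGAAGT no other motif was searched.

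Cd163, Cd5l and Marco carry scavenger receptor cysteine-rich domains. Cd163 clears haptoglobin-bound haemoglobin, Cd5l is a secreted apoptosis inhibitor of macrophages that binds lipids and microbes, and Marco is a trimeric receptor for bacteria and particles. Cd163 (ENSMUSG00000008845, chromosome 6, 124304656 to 124330527) was at 20.4, 13.4 and 22.3 CPM in KO replicates 4, 5 and 6, against 4.61, 9.93 and 7.39 CPM in WT replicates 1, 2 and 3. All KO libraries were higher, with KO replicate 5 the nearest to the WT range. The means were 18.7 ± 4.69 CPM in KO and 7.31 ± 2.66 CPM in WT (SD, n = 3 each), a log2 fold change of 1.35 (SE 0.33, edgeR adjusted p = 0.4). DESeq2 gave Cd163 an adjusted p of 0.0402 at a log2 fold change of 1.34, where it called 0.818% of genes as higher and 0.468% as lower; it called no other of the 8 markers. Limma-voom with sample quality weights passed Cd163, Clec4f and Csf1r as higher, in a fit that called 15.1% of all genes as higher and 14.6% as lower.

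Cd5l lay at 23.9, 24.6 and 28.5 CPM in KO replicates 4, 5 and 6, and at 19.4, 15.8 and 23.5 CPM in WT replicates 1, 2 and 3. The groups did not overlap, though the lowest KO and the highest WT library were almost level. The fold was small (log2 0.39, SE 0.22, edgeR adjusted p = 0.642). Marco gave 2.36, 4.12 and 2.30 CPM in KO, against 1.99, 1.22 and 3.60 CPM in WT, from 19 to 89 counts a library. KO replicate 5 and WT replicate 3 were both high, and the groups overlapped, WT replicate 3 lying above KO replicates 4 and 6. Its log2 fold change of 0.37 (SE 0.48, edgeR adjusted p = 0.804) came to 0.02 without KO replicate 5 and to 0.84 without WT replicate 3, and turned to −0.41 in limma-voom with sample quality weights.

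Folr2, folate receptor beta, was close to the limit of detection except in a single library. It had 0, 32 and 2 counts in KO replicates 4, 5 and 6, and 3 counts in each WT library. KO replicate 5 stood at 1.48 CPM (95% exact Poisson interval 1.01 to 2.09), against 0.187, 0.192 and 0.146 CPM in the WT replicates 1, 2 and 3, the highest upper bound of which was 0.561 CPM. The count of 0 in KO replicate 4 has an upper bound of 0.335 CPM by the same interval. These intervals cover counting error only. A single KO library thus carried the higher KO mean. When every gene with at least 1 count was tested, Folr2 had a log2 fold change of 1.68 (SE 1.06, edgeR adjusted p = 0.731). Two-sided, the exact permutation p of its CPM was 1. Its span overlaps 2 other genes on the opposite strand, neither above 18 counts, and the sources used here do not say whether counting used strand.

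Adgre1, which encodes the F4/80 antigen, and Csf1r are shared by most macrophages rather than being particular to Kupffer cells. Csf1r was at 31.3, 24.7 and 28.5 CPM in KO replicates 4, 5 and 6, against 12.3, 16.5 and 16.9 CPM in WT replicates 1, 2 and 3. The groups lay wide apart, at 28.2 ± 3.34 CPM in KO and 15.2 ± 2.57 CPM in WT (SD, n = 3 each; log2 0.88, SE 0.22, edgeR adjusted p = 0.391). It had the smallest p of the 8 tested markers. Its span overlaps Hmgxb3 and Mir6983, neither above 106 counts in a library. Adgre1 was at 2.0, 3.52 and 1.90 CPM in KO replicates 4, 5 and 6, against 2.31, 1.09 and 1.51 CPM in WT replicates 1, 2 and 3. Here WT replicate 1 was above all KO libraries except replicate 5 (log2 0.61, SE 0.45, edgeR adjusted p = 0.685). The log2 fold change was 0.25 without KO replicate 5 and 0.93 without WT replicate 1.

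**Figure D2:**
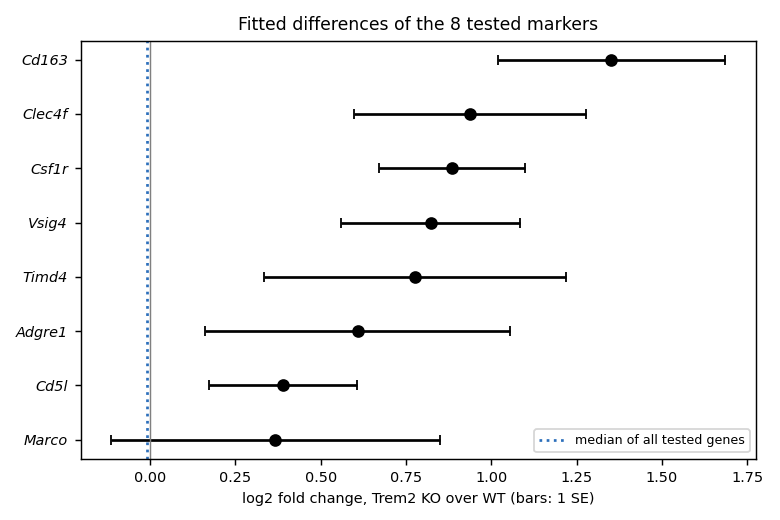
Log2 fold change of Trem2 KO over WT (horizontal axis, bars 1 SE) for the 8 tested markers from edgeR; the dotted line is the median of all 13693 tested genes at −0.01. All 8 lie right of 0, from 0.37 for Marco to 1.35 for Cd163, and none passed the adjusted threshold.

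Per kilobase of gene length the markers ran in a steep order of level. Clec4f came first, at 40.7 ± 15 CPM per kilobase in KO and 21.2 ± 5.37 in WT, and Cd5l next, at 12.6 ± 1.22 in KO and 9.62 ± 1.89 in WT (SD, n = 3 each). Vsig4 (6.09 ± 0.643 in KO, 3.44 ± 0.812 in WT) and Csf1r (5.77 ± 0.683 in KO, 3.12 ± 0.527 in WT) overlapped in both groups and cannot be ordered. Cd163 followed at 3.42 ± 0.859 in KO and 1.34 ± 0.487 in WT, below Csf1r in both groups. Marco, Timd4 and Adgre1 lay between 0.588 and 2.45 CPM per kilobase over the KO libraries and between 0.336 and 1.87 over the WT libraries, and in both groups Marco overlapped Timd4 and Timd4 overlapped Adgre1. Folr2 was the lowest, at 0 to 0.959 over the KO libraries and 0.0944 to 0.124 over the WT libraries. Clec4f and Cd5l, Cd5l and Vsig4, and Csf1r and Cd163 did not overlap in either group.

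The markers did not peak in the same KO liver. Of the 9, 4 were highest in KO replicate 6 (Clec4f, Cd163, Timd4 and Cd5l), 4 in KO replicate 5 (Vsig4, Marco, Adgre1 and Folr2) and 1 in KO replicate 4 (Csf1r). No marker was highest in a WT library, and 8 of the 9 were lowest in one: 5 in WT replicate 2, 3 in WT replicate 1. On the log2 scale, measured from each gene's mean over the 6 libraries, Clec4f was at −0.24 in KO replicate 5, where Adgre1 and Marco were at 0.83 and 0.74. Clec4f made up 59.6%, 43.1% and 60.9% of the markers' summed level per kilobase in KO replicates 4, 5 and 6, and 44.0%, 58.2% and 50.2% in WT replicates 1, 2 and 3. KO replicates 4 and 6, where Clec4f and Cd163 were high, also had the highest mitochondrial shares (28% and 19.8%), while KO replicate 5, at 9.08%, was within the WT range; the part of this in the result was not tested. Summed without Clec4f, the other 8 markers came to 91.2, 84.1 and 97.5 CPM in KO and 47.9, 50.2 and 61.8 CPM in WT.

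**Figure D3:**
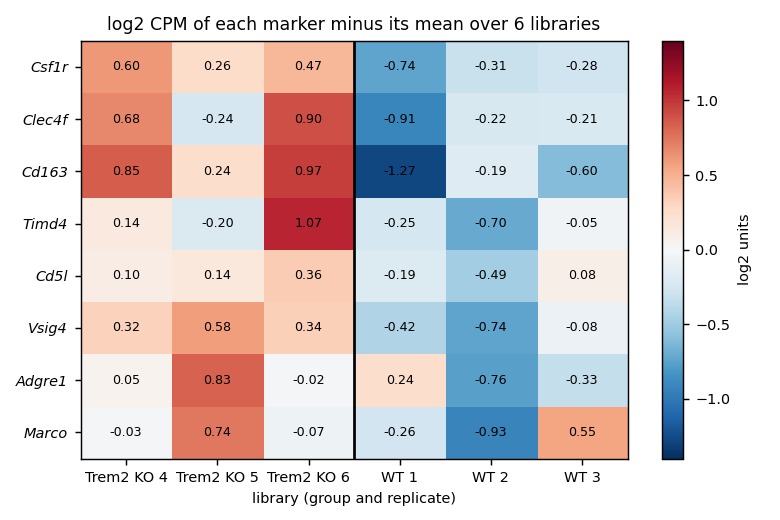
Heat map of log2 CPM of each tested marker (rows) minus its mean over the 6 libraries (columns, Trem2 KO left of the line, WT right), in log2 units with red above and blue below the mean. Clec4f reads −0.24 in KO replicate 5 against 0.68 and 0.90 in KO replicates 4 and 6, while Adgre1 and Marco are highest in KO replicate 5.

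Setting each marker against Csf1r within a library asked whether the other tested markers parted from a gene shared by macrophages. Adgre1, itself shared by most macrophages, was among the 7 compared. For Clec4f the ratio to Csf1r was 3.56, 2.39 and 4.59 in KO replicates 4, 5 and 6, and 3.02, 3.62 and 3.56 in WT replicates 1, 2 and 3. The KO values lay on both sides of the WT ones, and the mean log2 difference was 0.00. The ratio of Cd163 to Csf1r had the most positive difference of the 7 compared, standing at 0.652, 0.542 and 0.781 in KO and 0.376, 0.601 and 0.437 in WT (log2 difference 0.50, exact permutation p = 0.2). The ratio of Cd5l to Csf1r had the most negative one, standing at 0.762, 0.996 and 1 in KO and 1.58, 0.957 and 1.39 in WT (log2 difference −0.49, exact permutation p = 0.3). Groups overlapped for all 7 markers compared, and every Benjamini-Hochberg adjusted exact permutation p over the 7 was 1. At 3 against 3 the exact permutation test can give no p below 0.1, so no ratio could have passed 0.05.

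**Figure D4:**
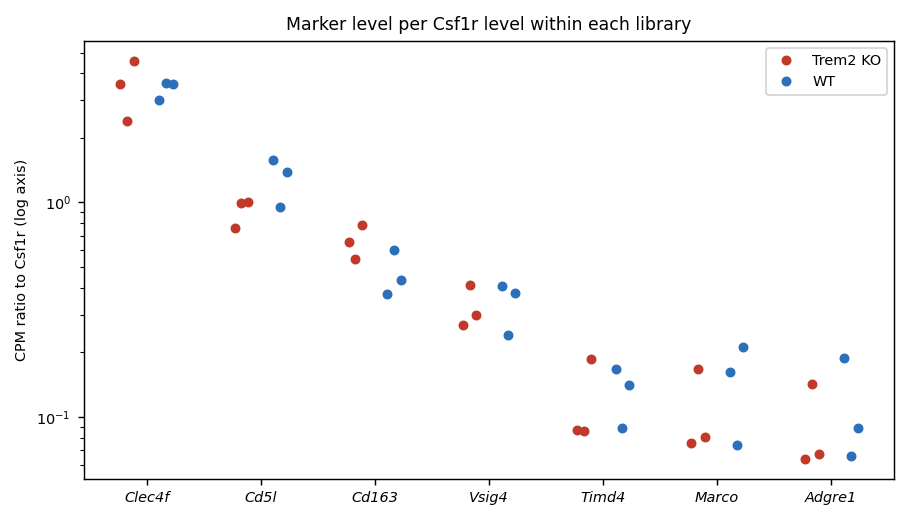
Ratio of each marker's CPM to that of Csf1r (vertical log axis) in every library, Trem2 KO in red to the left of WT in blue. The 2 groups overlap for all 7 markers; Clec4f, the highest, runs from 2.39 to 4.59 in KO and from 3.02 to 3.62 in WT.

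Against 15 genes shared by macrophages, summed, 1 marker separated the groups. Vsig4 made 0.0371, 0.0384 and 0.0359 of that sum in KO replicates 4, 5 and 6, against 0.0257, 0.0247 and 0.0278 in WT replicates 1, 2 and 3. The ratios did not overlap (log2 difference 0.51), at an exact permutation p of 0.1, which is 0.533 adjusted over the 8 markers compared. Cd163 differed by 1.06 on this log2 scale and Clec4f by 0.56, both with overlapping groups.

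Other genes known from Kupffer cells were also mostly fitted higher. Of 22 listed, 21 were tested, 17 were fitted higher and 4 lower, with a median log2 fold change of 0.48. None passed, and 6 had all KO libraries above all WT ones, which held for 8.12% of all tested genes. The list's summed level was not higher in KO, at 493.9 to 577 CPM in KO and 528 to 651 CPM in WT. Its median was 0.29 without KO replicate 4 and 0.30 without WT replicate 1. Cd207, langerin, which some Kupffer cells share with Langerhans cells, had 26, 46 and 31 counts in KO replicates 4, 5 and 6, against 5, 9 and 8 in WT replicates 1, 2 and 3. Every KO library was thus several times above every WT one in CPM (2.18 ± 0.168 in KO, 0.426 ± 0.136 in WT; SD, n = 3 each; log2 2.34, SE 0.43, edgeR adjusted p = 0.319). Fabp7, a fatty acid binding protein found in Kupffer cells, stood at 3.39 ± 1.04 CPM in KO and 1.26 ± 0.169 CPM in WT (log2 1.41, SE 0.38, edgeR adjusted p = 0.4). The identity factors Nr1h3 (liver X receptor alpha), Id3 and Spic had log2 fold changes of −0.17, −0.01 and 0.22, and hepatocytes also make Nr1h3. The summed level above includes Nr1h3, at 105 ± 7.70 CPM in KO and 118 ± 28.8 CPM in WT (SD, n = 3 each). That sum is therefore not a level of Kupffer cells alone. Over all 12 lineage transcription factors 8 were fitted higher and 4 lower (median 0.24, or 0.03 without WT replicate 1; none passing), among them Zeb2 at 1.04 (SE 0.35).

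The growth factor axis around Csf1r and the niche were read from their own lists. All 9 ligands and signal partners were fitted higher (median 0.53, or 0.31 without WT replicate 1; none passing). The ligands' groups differed little, Csf1 standing at 15.6 ± 4.81 CPM in KO and 13.1 ± 4.82 CPM in WT and Il34 standing at 2.48 ± 0.262 CPM in KO and 2.18 ± 0.255 CPM in WT (SD, n = 3 each). Tyrobp, the adaptor shared with Trem2, had all KO libraries above WT (9.89 ± 1.42 CPM in KO, 5.09 ± 0.987 CPM in WT), and Fyn, a Src-family kinase, had a log2 fold change of 0.83 (SE 0.29). Of 13 tested niche genes 10 were fitted higher and 3 lower (median 0.19, none passing), with Eng, an endothelial coreceptor for BMP ligands, at 1.04 (SE 0.30) and the growth factor Tgfb1 at 0.65 (SE 0.22).

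Lists of other macrophages and of other liver cells stood beside these. Shared macrophage genes had 12 of 15 members fitted higher and 3 lower (median 0.21, none passing). The C1q chains C1qa and C1qb were at 0.83 (SE 0.23) and 0.77 (SE 0.22). Markers of monocyte-derived macrophages had 11 of 13 tested members fitted higher (median 0.53, or 0.19 without WT replicate 1; none passing), led by the galectin gene Lgals3 (1.64, SE 0.38) and S100a6 (1.78, SE 0.45). The classical monocyte gene Ly6c2, however, had 0, 9 and 2 counts in KO replicates 4, 5 and 6, against 9, 10 and 10 in WT replicates 1, 2 and 3, and was too low to be tested. Lipid-associated macrophage markers had 11 of 15 tested members fitted higher (median 0.34, none passing), with Cd36 at 1.67 (SE 0.29) and the actin-capping gene Capg at 1.85 (SE 0.33). Trem2 itself is on this list and was fitted lower (−1.30). The list summed to 22970 to 34754 CPM in KO and 25871 to 35006 CPM in WT. Cd36 averaged only 140 CPM in KO and 44.0 CPM in WT, and Capg 4.32 and 1.19 CPM. The sum thus rests on other, more abundant genes of a list that includes Apoe and Plin2. It was not split by the cells that make them and is not a level of macrophages alone. Gpnmb of that list, like Folr2, had most of its reads in KO replicate 5, with 2, 25 and 0 counts in KO replicates 4, 5 and 6 and 2, 6 and 1 in WT replicates 1, 2 and 3. The last pair of lists share Lgals3 and Itgax. The resident markers' median of 0.80 is above these medians, but no test of that difference was made.

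**Figure D5:**
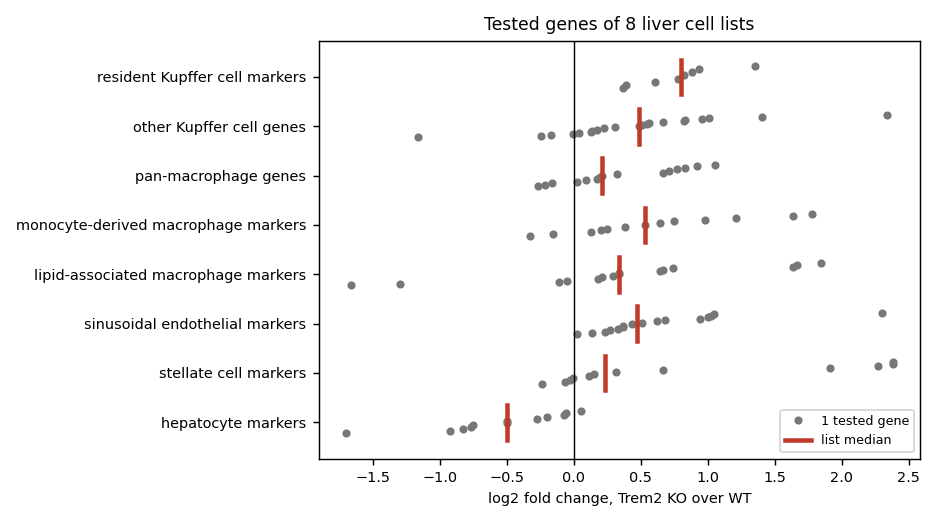
Log2 fold change of Trem2 KO over WT (horizontal axis) for every tested gene (grey points) of 8 lists of liver cell genes, with list medians as red bars. The resident Kupffer cell markers have a median of 0.80, the sinusoidal endothelial list 0.47 and the hepatocyte list −0.50.

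Markers of the sinusoid were fitted in the same direction as the Kupffer cell markers, and hepatocyte markers mostly in the other. All 16 sinusoidal endothelial genes were fitted higher (median 0.47, none passing), and their summed level was 427 to 605 CPM over the KO libraries and 305 to 348 CPM over the WT libraries; Eng, given above, and Cd34 (2.30, SE 0.68) had the smallest p. Stellate cell genes had 8 of 12 fitted higher (median 0.23, none passing; summed 443 to 647 CPM in KO and 340 to 386 CPM in WT), led by Col3a1 (2.27, SE 0.51) and Col1a1 (2.38, SE 0.56). Hepatocyte markers had 1 of 12 fitted higher and 11 lower (median −0.50, or −0.23 without WT replicate 1; none passing), with the urea cycle enzyme Cps1 at −1.70 (SE 0.60) and the plasma protein gene Ahsg at −0.93 (SE 0.48), and summed to 83618 to 92720 CPM in KO and 85047 to 132416 CPM in WT. The 9 resident markers themselves summed to 143 to 228 CPM in KO and 84.9 to 122 CPM in WT. The sums of the 9 resident markers, the endothelial genes and the stellate genes were higher in every KO library than in any WT one. So was that of the niche genes (293.6 to 390.2 CPM in KO, 245.3 to 264.2 CPM in WT), which share Eng and Bmp2 with the endothelial list. Eng alone stood at 141 ± 42.0 CPM in KO and 68.2 ± 16.1 CPM in WT (SD, n = 3 each), so these 2 sums are not independent. Sums overlapped for the shared macrophage genes, at 227.5 to 263.9 CPM in KO and 160.5 to 229.3 CPM in WT. They also overlapped for the monocyte-derived markers, at 113.4 to 143.8 CPM in KO and 89.18 to 119.6 CPM in WT. The sum of the 22 other Kupffer cell genes, which includes Nr1h3 and is not a level of Kupffer cells alone, was not higher in KO. The part of cell composition in the marker levels was not tested.

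Markers of other immune and blood cells gave mixed values. T and NK cell genes had 5 of 11 with enough counts, of which 3 were fitted higher, and summed to 6.16 to 8.36 CPM in KO and 6.59 to 7.63 CPM in WT. Their median of 0.55 came to 0.02 without KO replicate 6 and 0.07 without WT replicate 1, and to −0.08 when every gene with at least 1 count was kept. Cd4, the helper T cell coreceptor, had 5, 12 and 7 counts in KO replicates 4, 5 and 6, against 67, 18 and 33 in WT replicates 1, 2 and 3. In CPM every KO library was below every WT one (log2 −2.21, SE 0.59, edgeR adjusted p = 0.4), whereas Thy1 was at 0.84 (SE 0.52). B and plasma cell genes had 1 of 7 tested members fitted higher (median −0.49; summed 20.5 to 36.1 CPM in KO and 21.1 to 67.8 CPM in WT), with Jchain, the joining chain of polymeric antibodies, at −0.94 (SE 0.44) and Cd79a, of the B cell receptor, at −1.12 (SE 0.54). Neutrophil genes had 1 of 3 fitted higher (median −0.90), with S100a8 at −1.25 (SE 0.58) and S100a9 at −0.90 (SE 0.76), and the defining neutrophil marker Ly6g had 0 counts in all 6 libraries.

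Red pulp macrophage and erythroid genes had 4 of 6 tested members fitted higher (median 0.11). They summed to 203 to 328 CPM in KO and 167 to 261 CPM in WT. The haemoglobin chains Hba-a1 and Hbb-bs lay on opposite sides, at 0.90 (SE 0.37) and −0.62 (SE 0.41); both have near-identical copies among which reads could be split. Cholangiocyte genes had 6 of 7 tested members fitted higher (median 0.34; summed 509 to 730 CPM in KO and 391.5 to 512 CPM in WT), with the keratins Krt18 and Krt19 at 0.52 (SE 0.33) and 0.69 (SE 0.47). Krt18 averaged 221 CPM in KO and 154 CPM in WT, against 3.5 and 2.2 CPM for Krt19. The sum thus rests far more on Krt18 than on Krt19, and the cells that make Krt18 were not told apart. Clearance receptors of other cells had 8 of 11 fitted higher (median 0.47, or 0.07 without WT replicate 1), with Cd36 as above and Lrp1, the hepatocyte endocytic receptor, at −0.75 (SE 0.24). No gene of these 6 lists passed the test in edgeR.

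Genes with the most similar pattern were sought by the root mean square difference of centred log2 CPM over the 6 libraries, among tested protein-coding genes outside the 9. Vsig4 was nearest to C1qb, a chain of the complement component that macrophages secrete, at 0.06 log2 units, and next to Smim24 at 0.09. Clec4f was nearest to Pitpnm1 (0.08) and Rasip1 (0.10), Csf1r to Ap5b1 (0.09) and Trp53i11 (0.09), and Cd163 to Bcl2 (0.09) and Castor2 (0.14). Cd5l was nearest to Myl6 (0.07) and Ttll12 (0.07), Adgre1 to Vopp1 (0.12) and Coro1c (0.14), Timd4 to Lpin2 (0.16) and Slc15a4 (0.20), and Marco to Emcn (0.17) and Rgs5 (0.20). The markers were not each other's nearest neighbours. Clec4f and Csf1r differed from each other by 0.29, and 288 protein-coding genes were closer to Clec4f than Csf1r was. Cd163 had Clec4f as its nearest marker (0.30, with 117 genes closer), and Vsig4 and Cd5l differed by 0.25, with 92 genes closer to Vsig4 and 984 closer to Cd5l. With 6 libraries, such distances only describe these livers.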

How the data were processed

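Liver RNA was measured in 6 libraries, 3 KO and 3 WT, grouped by title. Per the labels' protocols, RNA was taken from frozen liver with Trizol and libraries were made with an Illumina TruSeq kit. Per the submitters' processing notes, the build was mm10 and the tools included DESeq2 1.16.1, featureCounts 1.5.0-p3 and HISAT2 2.0.5; their roles and settings are not stated there. Whole read counts per gene, as deposited by the authors, were the input; the authors' deposited FPKM table was used only as an alternative.

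The main test was edgeR 4.0.16 (R 4.3.3) on these counts: filterByExpr (13693 of 54532 genes), TMM scaling, quasi-likelihood test, Benjamini-Hochberg adjustment at 0.05, with a biological coefficient of variation of 34.7%. Each SE is the size of the log2 fold change divided by the root of F. A gene at 1 or 2 CPM, such as Adgre1, rests on few reads, so counting error adds to its spread. Exact permutation tests used scipy 1.17.1. Every pair of libraries differed beyond sampling noise (chi-square per degree of freedom at least 42.3).

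The 9 members, 16 other gene lists, tests and motifs were chosen with earlier results of these data known. Named genes are the members, Trem2, the 2 genes of each list with the smallest p where none passed, and the 2 nearest in pattern to each member; Nr1h3, Id3, Spic, Csf1, Il34, Ly6c2, Gpnmb and Ly6g were named from the lists after their values were seen. A further gene that this rule would name is not reported here. Promoter sequences are RefSeq's; 40 bases after each start were found in GENCODE vM21 transcripts of the same gene. On counts simulated for the same 13693 genes and library sizes, the test recovered 10 of 50 genes changed 2-fold, 37 of 50 changed 4-fold and all 50 changed 8-fold, with 8 of 155 calls false. Every simulated gene had the same biological coefficient of variation, and no library differed in quality. These rates may therefore not hold for the real libraries. Alternatives were DESeq2 1.42.0, limma-voom (limma 3.58.1) with or without sample quality weights, further scalings and filters, FPKM with pseudocounts of 1 and 0.1, and each library left out; robust dispersions, and a fit lacking both WT replicate 1 and KO replicate 5, were added after seeing the data.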

Additional observations from a re-analysis of the deposited data

How the results depend on the processing

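No paired analysis was possible because the groups share no replicate number. All 8 tested markers stayed fitted higher in KO, and none passed, under every edgeR scaling, filter and single library left out; the medians of their log2 fold changes then lay between 0.63 and 0.93. The median was 0.51 with FPKM plus 1, whose pseudocount shrinks low genes. Limma-voom with sample quality weights passed 3 markers, Clec4f at 1.04 (adjusted p = 0.0126), Cd163 at 1.53 (adjusted p = 0.00518) and Csf1r at 0.80 (adjusted p = 0.0104), and Trem2 at −1.52 (adjusted p = 0.0444). That fit called 4063 genes (2070 higher, or 15.1% of those tested, and 1993 lower, or 14.6%) and 60 genes of the lists. DESeq2 passed 1 marker, Cd163 at 1.34, with 176 calls (112 higher, or 0.818%, and 64 lower, or 0.468%) and 9 in the lists. The lists hold 182 genes besides the 9 markers, tested or not. Under no setting was the called share of listed genes set against that of all genes. Marco was reversed with quality weights (−0.41) and without WT replicate 1 and KO replicate 5 together (−0.072), where 11 genes passed (4 higher, 7 lower); the cause was not tested. Calls numbered 1 with limma-voom and with library totals alone (1 higher in each), 61 with every gene of at least 1 count (39 higher, 22 lower; 4 in the lists), and 0 to 1 with 1 library left out, higher ones included.

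Over markers with one library left out, log2 fold changes ran from 0.70 to 1.21 (Clec4f), 0.66 to 0.98 (Vsig4), 0.29 to 1.03 (Timd4), 0.02 to 0.84 (Marco), 0.25 to 0.51 (Cd5l), 0.25 to 0.93 (Adgre1), 1.11 to 1.62 (Cd163) and 0.75 to 0.97 (Csf1r). Non-overlapping markers numbered 3 with library totals alone and 4 to 6 with one library left out. Groups separate more easily with 1 library fewer. The share of all tested genes (8.12%) was counted for the main setting only, so these counts have no share beside them. Ratios to Csf1r crossed 0 with one library left out for Clec4f (−0.22 to 0.25), Vsig4 (−0.28 to 0.10) and Adgre1 (−0.66 to 0.14; log2 differences). They kept their sign for Timd4 (−0.56 to −0.002), Marco (−0.89 to −0.12), Cd5l (−0.70 to −0.34) and Cd163 (0.35 to 0.69). Taken per Adgre1, Vsig4 and Timd4 were at 0.24 and 0.091; per summed shared macrophage genes, Vsig4, Timd4, Marco, Cd5l and Adgre1 were at 0.51, 0.37, 0.12, 0.072 and 0.28. With AGGAAGT in place of GGAAGT, 1 of 7 promoters held the ETS motif. With every gene of at least 1 count the T and NK cell median turned to −0.08, and with quality weights the monocyte-derived median was 0.15. With one library left out, medians moved by over 1.5 times for most lists, ranging from 0.29 to 0.64 (other Kupffer cell genes), 0.03 to 0.56 (lineage factors), 0.31 to 0.68 (Csf1r partners), 0.20 to 0.50 (niche), 0.19 to 0.39 (shared macrophage genes), 0.07 to 0.80 (clearance receptors), 0.19 to 0.64 (monocyte-derived), 0.19 to 0.39 (stellate), −0.67 to −0.23 (hepatocytes) and 0.02 to 0.48 (T and NK cells), and they crossed 0 for cholangiocytes (−0.05 to 0.43), B and plasma cells (−0.83 to 0.03), neutrophils (−1.32 to 0.31) and red pulp and erythroid genes (−0.17 to 0.34). At this depth Folr2 and Timd4 rest on too few reads to show a small difference.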
